A study of Mus musculus with 12 samples.

Results

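The genes examined here were 10 components of transforming growth factor beta (TGF-beta), activin and GDF15 signalling: the ligand genes Tgfb1, Tgfb2, Tgfb3, Inhba, Inhbb and Gdf15, the receptor genes Tgfbr1 and Tgfbr2, the latency gene Ltbp1 and the feedback inhibitor Smad7. They were chosen by name and not by a cutoff on their values, though with earlier results of these data known. They are 10 of the 49315 gene identifiers counted in the study. All 10 passed the filter on low counts that left 17416 genes for testing. RNA was sequenced from primary mouse adult fibroblasts (MAFs) cultured from ears, from WT animals and from animals with the genotype BMAL1 -/- (KO), which lack the clock transcription factor BMAL1 in the whole body. Control MAFs were sham irradiated. Senescent MAFs received 20 Gy of X-rays and, by the study's methods, were then kept in culture for some weeks. Every culture, controls included, was synchronised with 100 nM dexamethasone, a glucocorticoid, and collected 12 h later, so that all levels refer to 1 time after a steroid pulse. Genotype and treatment gave 4 groups of 3 libraries, and single libraries are named by group and replicate number (WT control 1). The labels do not say which libraries came from separate animals or cultures, so p-values measure the spread between these libraries, which may be technical.

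TGF-beta ligands are secreted in a latent form, held by their own propeptide and tethered to the matrix by latent TGF-beta binding proteins. Once released, they bring together the receptors TGFBR2 and TGFBR1, which phosphorylate SMAD2 and SMAD3. Activins, dimers of the chains that Inhba and Inhbb encode, use activin receptors to reach the same SMADs, while bone morphogenetic proteins (BMPs) use other receptors to reach SMAD1 and SMAD5. GDF15 is a distant relative that is induced by stress and acts through GFRAL, a receptor of the hindbrain. In fibroblasts the family is known for driving matrix synthesis, and several of its ligands are counted among the factors that senescent cells secrete.

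Total counts were 23923030 to 31736083 per library, and levels are given in CPM, counts scaled to a common library total, with the totals adjusted by TMM, the trimmed mean of M-values, as mean ± SD of 3 libraries. At this depth 3 counts, the detection floor, equalled 0.0945 to 0.125 CPM. Arntl, the annotation's name for the Bmal1 gene, was lower in every KO library than in every WT library (11.8 to 27.5 CPM against 29.8 to 37.4 CPM) but was counted in all of them. Its group means were 31.5 CPM in WT control, 36.1 in WT senescent, 13.2 in KO control and 26.6 CPM in KO senescent cells, so that it rose 2.02-fold in KO cells (log2 1.02, adjusted p 1.96e-09) and was 2.40-fold lower in KO than in WT control cells but 1.36-fold lower in senescent cells. The source of the counts in KO libraries was not tested. All 9 fibroblast markers of a fixed list were at 1 CPM or more in each group, but their sum was 20020 to 20830 CPM in WT control, 9844 to 10252 CPM in WT senescent, 24978 to 26343 CPM in KO control and 11734 to 12151 CPM in KO senescent libraries, and so moved with the groups. Single markers did not all follow the sum. At an adjusted p under 0.05, 5 were higher and 4 lower with senescence in WT cells (29.2% and 27.0% of all genes). In KO cells 3 were higher and 5 lower (28.5% and 28.6%). The summed markers of endothelium, melanocytes, keratinocytes and adipocytes were rarer, at or below 10.1 CPM, and those of macrophages at or below 16.0 CPM, but some moved with senescence. All 3 keratinocyte markers tested were higher in senescent cells of both genotypes at an adjusted p under 0.05. Of 2 adipocyte markers tested, 1 was higher in WT and 2 in KO senescent cells, while the untested Lep had no count in senescent libraries. The adipocyte markers summed to at most 0.361 CPM in WT and 0.200 CPM in KO control libraries. The filter on low counts could keep markers this rare through their senescent libraries alone, which may also hold for rare keratinocyte markers. These counts are thus partly set by the filter, and no conclusion is drawn from them. Of 2 melanocyte markers tested, 1 was lower in WT and 1 higher in KO senescent cells. Of 4 senescence markers, the proliferation gene Mki67 and the lamin gene Lmnb1 fell and the cell cycle inhibitor Cdkn1a rose in both genotypes, while Cdkn2a, which encodes p16 and p19ARF, did not pass in WT cells (3.45 and 3.19 CPM, adjusted p 0.723) and rose in KO cells (3.93 to 9.42 CPM, log2 1.26, adjusted p 5.05e-05). Markers of chondrocytes, which ear cartilage contains, were abundant and moved with the groups: the 7 genes summed to 8745 to 10809 CPM in WT control, 2665 to 3092 CPM in WT senescent, 5958 to 8272 CPM in KO control and 887 to 1085 CPM in KO senescent libraries. All 7 fell with senescence in both genotypes, and all 7 fell further in KO cells. Of 5 myofibroblast markers, 4 were higher and 0 lower in KO than in WT control cells, beside 8.07% and 4.96% of all genes. In senescent cells 5 were higher and 0 lower in KO than in WT, beside 11.9% and 11.8% of all genes (median 0.45 in both states). With senescence 3 of them rose and 2 fell in WT cells, and 1 rose and 1 fell in KO cells. The part of these differences in the results below was not tested. In bulk RNA, fewer cells of a type and less RNA per cell cannot be told apart. Because WT and KO libraries were deposited in separate tables, a difference in handling cannot be told apart from genotype in any comparison of KO with WT.

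Senescence moved most of the 10 genes, and moved them unequally. In WT cells 6 were higher and 2 lower at an adjusted p under 0.05 (passed), beside 29.2% and 27.0% of all genes tested. In KO cells 5 were higher and 3 lower, beside 28.5% and 28.6% of all genes. The median log2 fold change of the 10 was 0.24 in WT and 0.34 in KO cells, and that of all genes was 0.02 and −0.0028. Inhbb and Gdf15 were also over 1 in size on the log2 scale (called) in both genotypes, so 2 of 10 genes were called in each, where 17.4% of all genes were called in WT and 18.8% in KO cells. Scaling by library totals alone, without TMM, raised the median of all genes to 0.19 in WT and 0.15 in KO cells and changed the split of passed genes from 5093 higher and 4702 lower to 7000 and 3213 in WT cells, and from 4964 and 4983 to 6703 and 3618 in KO cells. Changes smaller than this shift therefore depend on the scaling.

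**Figure D1:**
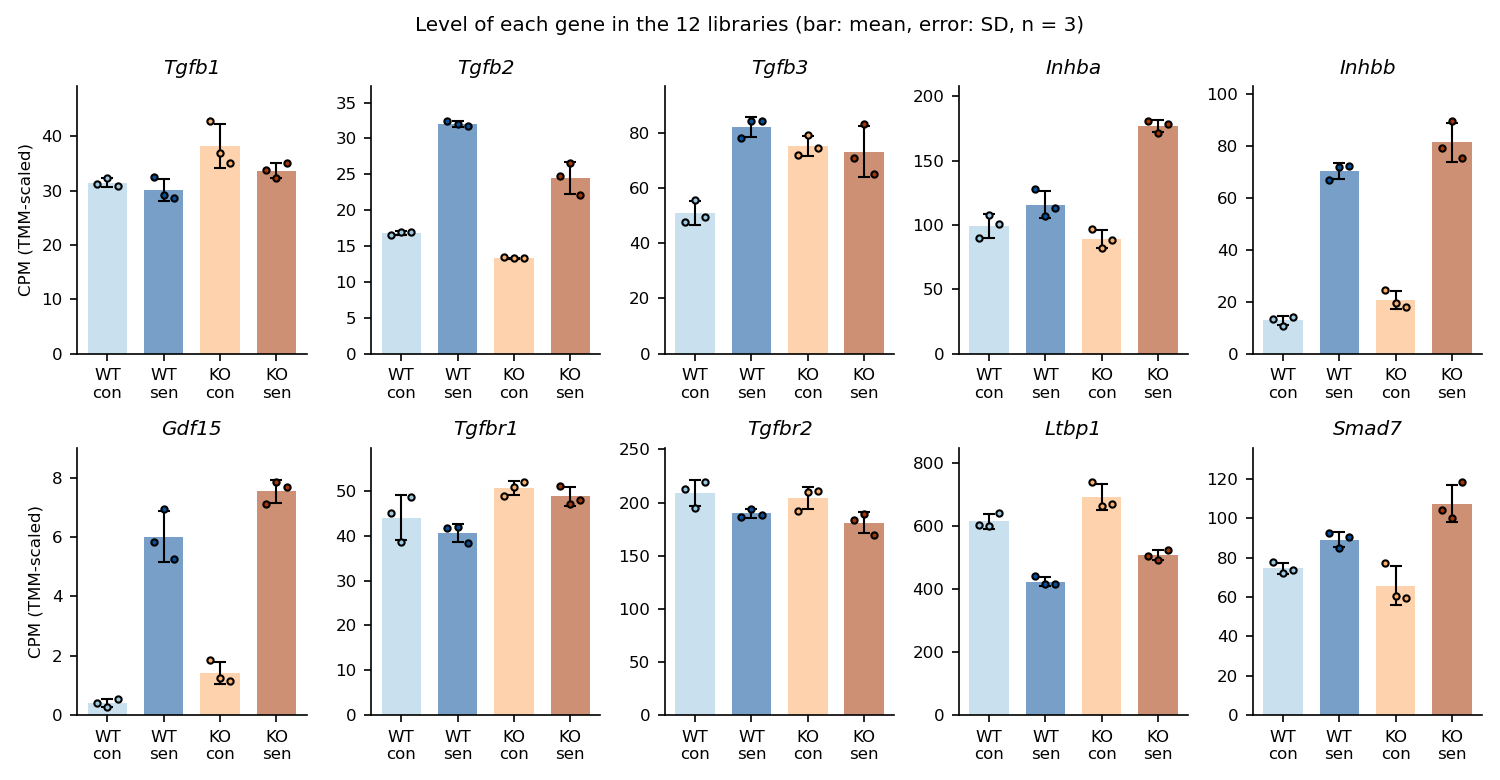
Level of each of the 10 genes in CPM (linear axes from 0) in control (con) and senescent (sen) cells of each genotype. Points are the 3 libraries, bars the mean and error bars the SD. Inhbb and Gdf15 were higher in every senescent than in every control library, Tgfb3 libraries were lowest in WT control cells (47.6 to 55.7 CPM), and Inhba stood highest in KO senescent libraries (172 to 181 CPM).

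Among the TGF-beta ligand genes, Tgfb1, the most widely expressed isoform (GRCm38 chromosome 7, 25687002 to 25705077, plus strand), stood at 31.2, 32.4 and 30.8 CPM in the control libraries of WT, 32.4, 29.2 and 28.7 CPM in WT senescent, 42.8, 37.0 and 35.0 CPM in KO control and 33.7, 32.3 and 35.0 CPM in KO senescent libraries. The WT groups overlapped, and KO control libraries were the highest. Its senescence change was −0.06 in WT cells (SE 0.08, adjusted p 0.513) and −0.18 in KO cells (SE 0.08, adjusted p 0.0413). The KO change did not pass without KO control 1, KO senescent 1 or KO senescent 2 (adjusted p up to 0.262). It also did not pass with library totals alone (−0.031, adjusted p 0.751), DESeq2 size factors (0.0645), DESeq2 (0.0832), only the KO groups fitted (0.0827) or the block within each genotype (0.056). The difference between the genotypes' changes did not pass (−0.12, adjusted p 0.462). In control cells Tgfb1 was 1.22-fold higher in KO than in WT (log2 0.28, SE 0.08, adjusted p 0.016), but not without WT control 1 or KO control 1 (adjusted p up to 0.0836).

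Tgfb2, an isoform prominent in development and in the eye (chromosome 1, 186622792 to 186705989, minus strand), was at 16.5, 17 and 17 CPM in WT control libraries and 32.5, 32 and 31.7 CPM in WT senescent libraries. In KO cells it was at 13.4, 13.3 and 13.3 CPM in control and 24.7, 26.6 and 22.1 CPM in senescent libraries. The 4 groups did not overlap in any of the paired comparisons, and within each state all KO libraries lay below all WT libraries. Senescence raised Tgfb2 1.90-fold in WT cells (log2 0.93, SE 0.08, adjusted p 1.32e-09) and 1.84-fold in KO cells (0.88, SE 0.08, adjusted p 4.27e-09). The 2 changes differed by −0.05 (95% interval −0.28 to 0.18, adjusted p 0.79). The deficit of KO cells was 1.26-fold in control cells (−0.34, SE 0.08, adjusted p 0.00719) and 1.31-fold in senescent cells (−0.39, SE 0.07, adjusted p 0.000496). Neither was over 1 in size, and no alternative setting moved either across the adjusted p threshold. Tgfb2 overlaps a gene on the other strand, Gm29491, and without a stated strand setting reads of that gene cannot be separated from those of Tgfb2.

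Tgfb3, an isoform known from palate fusion and wound repair (chromosome 12, 86056745 to 86079041, minus strand), was the most abundant of the 3 per annotated exon length. It was at 47.6, 55.7 and 49.5 CPM in WT control libraries and 77.9, 84.1 and 84.2 CPM in WT senescent libraries. In KO cells it was at 72.0, 79.0 and 74.4 CPM in control and 70.9, 83.2 and 65.1 CPM in senescent libraries. WT control libraries were the low ones, while the KO groups overlapped each other. Senescence raised Tgfb3 1.61-fold in WT cells (log2 0.69, SE 0.08, adjusted p 4.19e-07). In KO cells the change was −0.04 (95% interval −0.20 to 0.12, adjusted p 0.68), and the interaction, the KO change less the WT change, was −0.73 (SE 0.11, adjusted p 0.00018). It ranged from −0.83 to −0.65 when 1 library was left out. KO control cells held 1.48-fold more Tgfb3 than WT control cells (0.56, SE 0.08, adjusted p 7.14e-05), whereas KO and WT senescent cells differed by −0.17 (adjusted p 0.13). Without KO senescent 2 that difference was −0.27 (adjusted p 0.00969), and without KO senescent 3 it was −0.090. Tgfb3 overlaps 2 short genes on the other strand, Gm37804 and Gm48008, so its counts share the same uncertainty over strand.

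Dividing CPM by exon length in kilobases (RPKM) allowed the 3 isoforms to be compared with one another, as a description without a test. Their summed level was 24.2 ± 1.44 RPKM in WT control, 35.8 ± 0.618 RPKM in WT senescent, 32.1 ± 0.886 RPKM in KO control and 32.5 ± 2.84 RPKM in KO senescent cells (SD, n = 3). Tgfb3 made up 62.1 ± 1.5%, 67.8 ± 1.86%, 69.2 ± 2.49% and 66.3 ± 2.53% of that sum in the same order. The share of Tgfb1 was 25.8 ± 0.965% in WT control and 16.7 ± 1.41% in WT senescent cells, and 23.7 ± 2.45% and 20.7 ± 2.58% in KO control and senescent cells, where the libraries overlapped. The share of Tgfb2 went from 12.0 ± 0.597% to 15.5 ± 0.447% in WT cells and from 7.17 ± 0.191% to 13.0 ± 0.351% in KO cells, with no overlap between any of the 4 groups. Without the length scaling the share of Tgfb3 was 51.3% to 59.3% over the groups.

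**Figure D2:**
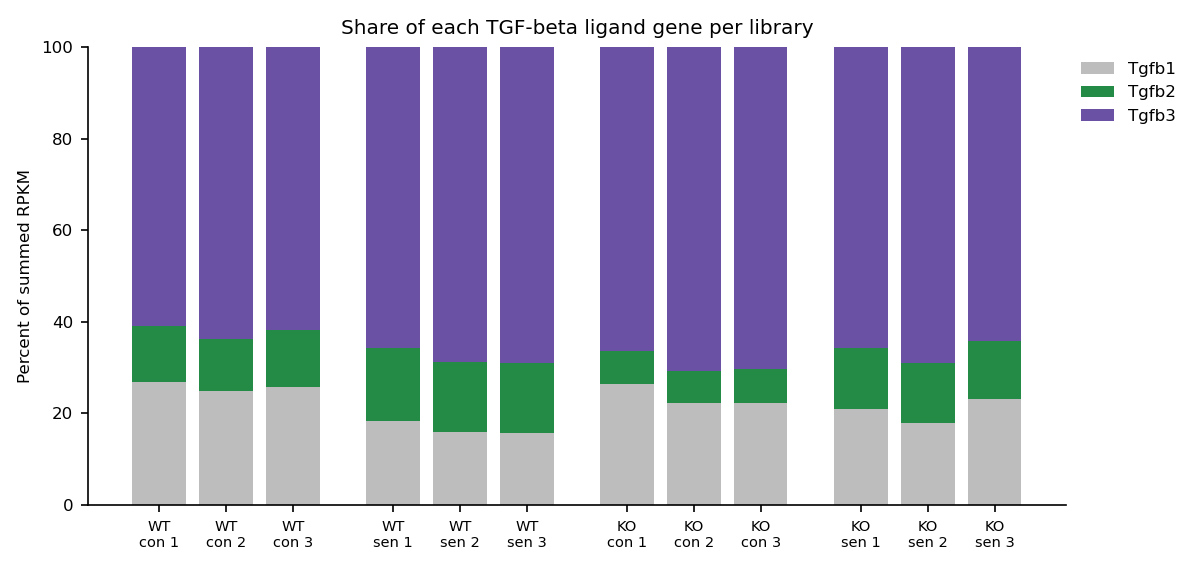
Share of Tgfb1, Tgfb2 and Tgfb3 in their summed RPKM, in percent, for each of the 12 libraries (con, control; sen, senescent; the number is the replicate). Tgfb3 held the largest share in every library, from 60.9% to 70.8%, and the Tgfb2 share was lowest in the KO control libraries (6.96% to 7.34%).

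Among the activin genes, Inhba, which encodes the beta A chain of activin A (chromosome 13, 16011851 to 16031621, plus strand), was at 89.6, 108 and 100.4 CPM in WT control libraries and 128, 107 and 113 CPM in WT senescent libraries. It was at 96.8, 82.4 and 88.1 CPM in KO control and 181, 172 and 179 CPM in KO senescent libraries. WT control and senescent libraries overlapped, while every KO senescent library was above every other library. Senescence raised Inhba 1.17-fold in WT cells (log2 0.22, SE 0.07, adjusted p 0.0151). This rise did not pass without WT control 1 or WT senescent 1 (adjusted p up to 0.113) or with only the WT groups fitted (0.0648). In KO cells it rose 1.99-fold (0.99, SE 0.07, adjusted p 1.08e-09), and the interaction was 0.77 (SE 0.10, adjusted p 7.42e-05), between 0.70 and 0.84 without any 1 library. In senescent cells Inhba was 1.53-fold higher in KO than in WT (0.61, SE 0.07, adjusted p 6.81e-06), and in control cells the difference was −0.15 (95% interval −0.31 to 0.0028, adjusted p 0.198).

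Inhbb, which encodes the beta B chain of activin B (chromosome 1, 119415465 to 119422248, minus strand), was at 13.3, 10.7 and 14.2 CPM in WT control libraries and 66.8, 71.8 and 72.2 CPM in WT senescent libraries. In KO cells it was at 24.5, 19.6 and 17.8 CPM in control and 79.2, 89.5 and 75.1 CPM in senescent libraries. No pair of the compared groups overlapped. Inhbb rose 5.52-fold in WT cells (log2 2.46, SE 0.12, adjusted p 9.62e-11) and 3.94-fold in KO cells (1.98, SE 0.11, adjusted p 5.86e-10). In control cells it was 1.62-fold higher in KO than in WT (0.70, SE 0.12, adjusted p 0.00153), and in senescent cells the difference was 0.21 (adjusted p 0.157), which passed with no filter on low counts (0.0179), with only the senescent groups fitted (0.0173) and without KO control 1 (0.0468). The interaction of −0.49 (SE 0.16, adjusted p 0.0443) was lost without any library other than WT control 3, KO control 3 or KO senescent 2 (adjusted p up to 0.0945) and with DESeq2 size factors (0.0561). Inha, the alpha chain that turns activins into inhibins, was at 2.72 to 3.77 CPM on average in the 4 groups.

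Gdf15 (chromosome 8, 70629393 to 70632456, minus strand) was the least abundant of the 10 genes in control cells and had the largest change. WT control libraries held 0.402, 0.285 and 0.542 CPM, from 7 to 12 counts each, and WT senescent libraries held 5.82, 6.94 and 5.25 CPM. It was 1.84, 1.25 and 1.16 CPM in KO control and 7.10, 7.84 and 7.67 CPM in KO senescent libraries. The groups did not overlap, and KO control libraries lay between WT control and all senescent libraries. Gdf15 rose 14.6-fold in WT cells (log2 3.87, SE 0.25, adjusted p 3.15e-11) and 5.32-fold in KO cells (2.41, SE 0.20, adjusted p 1.9e-09). KO control cells held 3.45-fold more Gdf15 RNA than WT control cells (1.79, SE 0.29, adjusted p 0.00021), the only one of the 10 genes called in that comparison, where 2.54% of all genes were called. KO and WT senescent cells differed by 0.33 (95% interval −0.04 to 0.70, adjusted p 0.199). The interaction was −1.46 (SE 0.34, adjusted p 0.00455), from −1.70 to −1.23 without any 1 library, and Gdf15 was the only one of the 10 genes called for it, beside 3.66% of all genes. Gfral, the receptor gene of GDF15, had 0 or 1 count in every library.

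A list of 8 genes held stress and p53 pathway genes, among them regulators of Gdf15 such as Trp53 and Ddit3 and other p53 targets such as Cdkn1a. Of the 8, 4 were called higher in both genotypes: Cdkn1a and Mdm2, targets of p53, and Ddit3 and Atf3, factors of the stress response. Of all 17416 genes tested, 2012 were called higher in WT and 1957 in KO cells. Cdkn1a stood at 165 CPM in control and 622 CPM in senescent WT cells, with 221 and 683 CPM for KO (log2 1.92 and 1.63). The same values for Atf3 were 1.5 and 5.24 CPM in WT and 1.04 and 7.0 CPM in KO cells (1.79 and 2.72). The other genes, Trp53, Atf4, Trib3 and Egr1, fell in WT cells, with changes of −0.33, −0.36, −0.54 and −0.50, and did not pass in KO cells. In control cells, where Gdf15 was higher in KO, Cdkn1a was 0.42 higher as well (adjusted p 7.9e-05) and Atf3 differed by −0.51 (adjusted p 0.152).

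The stretches of DNA before the start sites of the ligand genes that rose are shown because BMAL1 binds the E-box CACGTG. RefSeq gave promoter windows for 8 of the 10 genes (all but Tgfb3 and Smad7), 11 starts in all, on GRCm38.p6. The 250 bases before each start were searched on both strands for the E-box CACGTG, the AP-1 site (TGACTCA or TGAGTCA), the cyclic AMP response element (CRE) TGACGTCA and a TATA box (TATAAA or TTTATA). Matches are in capitals, each line runs 5′ to 3′ toward the gene, and no match overlapped another. The first 3 lines are whole windows of 250 bases. The line of Gdf15 gives only 30 bases around its E-box, because the window of that start, the inner of 2, lies partly in the first exon of a longer transcript.
Tgfb2 (chr1:186705990-186706239, minus strand): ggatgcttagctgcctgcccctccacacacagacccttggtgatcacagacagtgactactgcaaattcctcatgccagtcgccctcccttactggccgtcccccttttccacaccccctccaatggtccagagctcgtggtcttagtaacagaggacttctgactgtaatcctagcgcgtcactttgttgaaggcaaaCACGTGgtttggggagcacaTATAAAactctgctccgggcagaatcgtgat
Inhba (chr13:16011601-16011850, plus strand): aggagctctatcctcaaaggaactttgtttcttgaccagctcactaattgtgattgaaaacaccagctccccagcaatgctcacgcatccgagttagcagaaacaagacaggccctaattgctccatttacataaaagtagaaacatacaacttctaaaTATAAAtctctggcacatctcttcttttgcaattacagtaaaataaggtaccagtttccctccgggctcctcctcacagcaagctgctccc
Inhbb (chr1:119422249-119422498, minus strand): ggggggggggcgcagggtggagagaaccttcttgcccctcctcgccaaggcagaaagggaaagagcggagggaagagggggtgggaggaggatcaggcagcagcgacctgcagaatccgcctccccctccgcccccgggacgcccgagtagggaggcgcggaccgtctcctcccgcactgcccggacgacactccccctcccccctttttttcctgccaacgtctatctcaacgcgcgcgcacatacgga
Gdf15 (chr8:70632161-70632190, minus strand): cacagggcagggCACGTGtgagcatccagt
Tgfb2 carried the E-box 51 bases and a TATA box 31 bases before its start, in a stretch that the exon of Gm29491 covers on the other strand. Gdf15 carried the E-box 83 bases before the inner start, inside that exon of Gdf15 itself. The window before its outer start held none of the 4 motifs. Inhba had a TATA box 91 bases before its start, and Inhbb held none of the 4 motifs. Among all 32851 windows of the table, 6.02% held the E-box, 4.46% the AP-1 site, 1.55% the CRE and 12.4% a TATA box, and a match is a description, not a bound site. The pair of genes with an E-box differed from WT in opposite directions in KO control cells, Tgfb2 by −0.34 and Gdf15 by 1.79. None of the 11 windows held the AP-1 letters, and Ltbp1 held the CRE 73 bases before 1 of its 2 starts.

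Of 27 other ligands of the superfamily, 17 were expressed enough to be tested. Senescence raised 12 of them in WT and 14 in KO cells, beside 29.2% and 28.5% of all genes, and 1, the inhibin chain gene Inha, fell in KO cells (−0.48). Their median change was 1.1 in WT and 1.95 in KO cells, yet most of these genes were rare. The filter on low counts kept genes that the libraries of any group lifted over its cutoff. Ligands rare in control cells could thus be tested only through their senescent libraries. The counts and medians of this list are therefore partly set by the filter, and no conclusion is drawn from them. Bmp2, which encodes a bone morphogenetic protein, averaged 0.254 CPM in WT control, 2.88 in WT senescent, 0.422 in KO control and 7.05 CPM in KO senescent cells, and KO senescent cells were 1.29 above WT senescent cells on the log2 scale (adjusted p 0.000112). Gdf7, a relative of the BMPs, had 1 to 5 counts per WT control library and 56 to 87 per WT senescent library, and 1 to 5 and 79 to 106 in KO cells. Gdf10, another relative, had 0 to 4 and 95 to 128 counts in WT and 3 to 13 and 59 to 124 counts in KO cells. Their fitted changes depend on the prior count where controls are this low and are not given as folds. Gdf5, a growth factor of joints and cartilage, averaged 2.58 and 2.65 CPM in control and senescent WT cells but 1.56 and 6.04 CPM in KO cells, and it was the 1 gene of this list to pass the interaction (1.91, adjusted p 0.000576).

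The receptor genes of the TGF-beta ligands themselves moved little. Tgfbr1, the type I receptor (chromosome 4, 47353222 to 47414931, plus strand), was at 38.6 to 48.6 CPM in WT control, 38.4 to 42.0 CPM in WT senescent, 48.9 to 51.9 CPM in KO control and 47.1 to 51.2 CPM in KO senescent libraries. Its senescence change did not pass in WT (−0.11, 95% interval −0.27 to 0.04) or KO cells (−0.05, 95% interval −0.20 to 0.10), but without WT control 2 the WT change was −0.20 (adjusted p 0.0167). In each state all 3 KO libraries lay above all WT libraries. The difference was 0.26 in senescent cells (SE 0.07, adjusted p 0.0111), lost without WT senescent 3 (0.0732), and 0.20 in control cells (SE 0.07, adjusted p 0.0761), which passed without WT control 3 (0.28, adjusted p 0.0144) and with no filter on low counts (adjusted p 0.0406). Tgfbr2, the type II receptor that binds the ligand first (chromosome 9, 116084293 to 116175360, minus strand), was at 195 to 219 CPM in WT control libraries and 186 to 194 CPM in WT senescent libraries, and at 192 to 211 CPM in KO control and 170 to 189 CPM in KO senescent libraries. Control libraries were above senescent ones in both genotypes by a small margin. The change was −0.14 in WT cells (SE 0.06, adjusted p 0.0413), lost without any WT library other than WT control 2 (adjusted p up to 0.144), and −0.18 in KO cells (SE 0.06, adjusted p 0.0114), lost without KO senescent 3 (0.0586). With library totals alone the changes of Tgfbr2 were 0.030 and −0.023, and those of Tgfbr1 0.057 and 0.10, so no direction is drawn from them.

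Other receptors of the superfamily changed more. Of 13 listed, 11 were tested, of which 6 rose and 2 fell in WT cells (29.2% and 27.0% of all genes) while 4 rose and 4 fell in KO cells (28.5% and 28.6%). Eng, the co-receptor endoglin, averaged 9.96 and 28.0 CPM in control and senescent WT cells, with 17.8 and 43.3 CPM in KO cells (log2 1.49 and 1.28). Acvrl1, the type I receptor ALK1, rose by 1.18 in WT cells and by 1.24 in KO cells. Acvr1b, the main type I receptor of activins, averaged 65.1 and 44.5 CPM in control and senescent WT cells, against 60.1 and 27 CPM in those of KO, and fell in both (−0.55 and −1.16), with an interaction of −0.61 (SE 0.12, adjusted p 0.00132). Its mean was thus lowest in the KO senescent cells, in which that of Inhba was highest. Tgfbr3, the co-receptor betaglycan, stayed at 99.7 and 99.8 CPM in WT cells and fell from 109.6 to 78.4 CPM in KO cells (−0.48), an interaction of −0.49 (adjusted p 0.00662). Bmpr2, a type II receptor of BMPs, rose in both genotypes (0.43 and 0.32). The activin type II receptor genes were rarer, with group means of 15.2 to 21 CPM for Acvr2a and 1.24 to 2.02 CPM for Acvr2b.

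**Figure D3:**
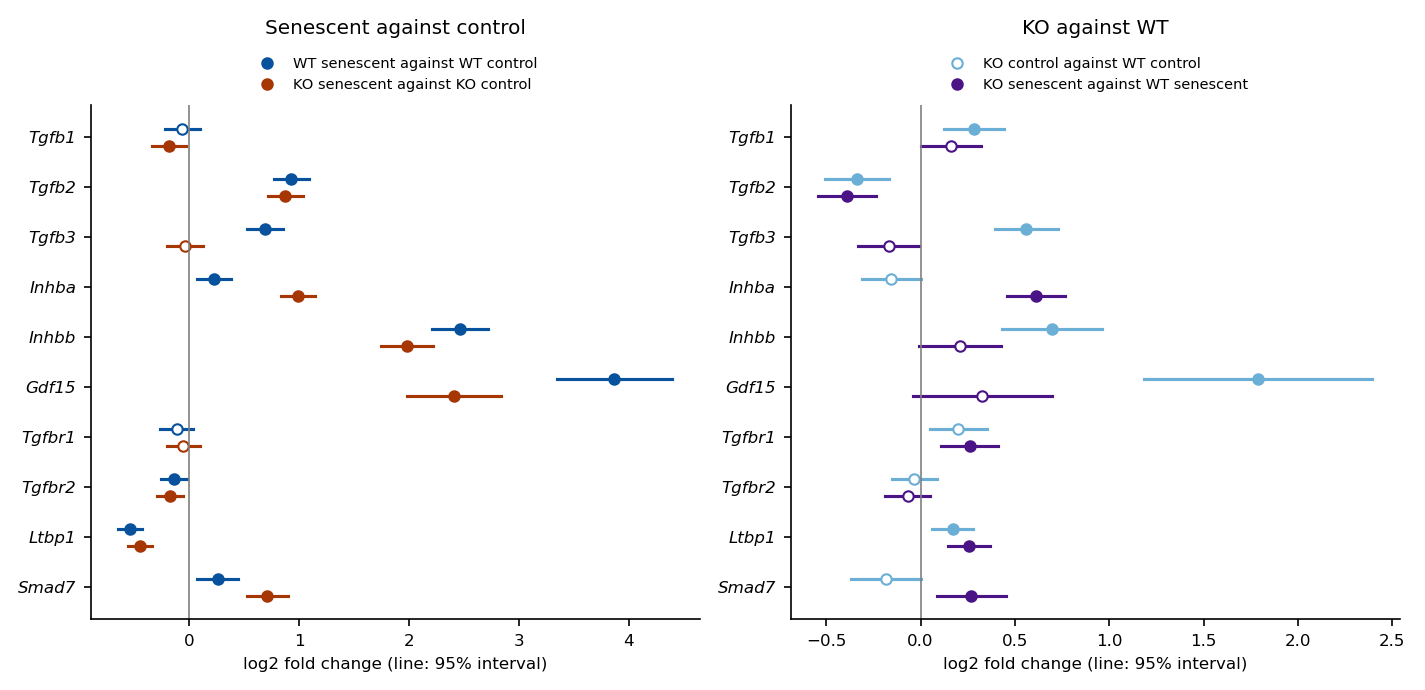
Log2 fold changes of the 10 genes with 95% intervals, for senescent against control cells (left) and KO against WT cells (right). Filled points passed an adjusted p of 0.05 and open points did not. Gdf15 and Inhbb lay farthest to the right on the left side (3.87 and 2.46 in WT cells), and Gdf15 in control cells (1.79) on the right side.

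Ltbp1, which encodes a matrix protein that binds and stores latent TGF-beta (chromosome 17, 75005568 to 75392512, plus strand), was at 603, 598 and 640 CPM in WT control libraries and 440, 416 and 415 CPM in WT senescent libraries. It was at 738, 664 and 671 CPM in KO control and 505, 491 and 523 CPM in KO senescent libraries. The groups did not overlap, and KO libraries were the higher ones in each state. Ltbp1 fell 1.45-fold in WT cells (log2 −0.54, SE 0.05, adjusted p 1.93e-08) and 1.36-fold in KO cells (−0.45, SE 0.05, adjusted p 2.46e-07), and the falls differed by 0.09 (95% interval −0.07 to 0.24, adjusted p 0.447). KO cells held more of it in senescent cells (0.26, SE 0.05, adjusted p 0.001). In control cells the difference was 0.17 (SE 0.05, adjusted p 0.0345), lost without any of WT control 1, WT control 2, WT senescent 3, KO control 1 or KO control 3 (adjusted p up to 0.132).

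The other genes of latency and activation, 13 in all and each tested, split almost evenly: 5 rose and 6 fell in each genotype, where 29.2% and 27.0% of all genes did so in WT and 28.5% and 28.6% in KO cells. Among the relatives of Ltbp1, Ltbp3 rose in WT (349 to 452 CPM, log2 0.37) and in KO cells (321 to 384 CPM, 0.26). Ltbp4 rose in WT cells (91.3 to 122 CPM, 0.41) and was at 94.4 and 79.4 CPM in KO cells, giving an interaction of −0.66 (adjusted p 0.000739). Ltbp2, which does not store TGF-beta, was at 2179 and 2357 CPM in WT and 2418 and 2038 CPM in KO cells, giving an interaction of −0.36 (adjusted p 0.000825). Fbn1, the fibrillin that anchors these proteins, was 1562 CPM in WT control cells and 689 CPM after senescence, and 2081 and 951 CPM in KO cells (−1.18 and −1.13). Of the integrin chains that help release TGF-beta, Itgb5 rose in both genotypes (1.25 and 0.92). Itgb3 fell in both, less in KO cells (−1.54 and −0.57, interaction 0.98, adjusted p 0.00332). Thbs1, thrombospondin 1, an activator of latent TGF-beta, fell in WT cells (−0.30) and stayed at 7020.5 and 7057 CPM in KO cells, giving an interaction of 0.30 (adjusted p 0.00251).

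Secreted inhibitors included some of the largest changes of the pathway. Of 14 tested of 15 listed, 8 rose and 3 fell in WT cells (29.2% and 27.0% of all genes) and 9 rose and 4 fell in KO cells (28.5% and 28.6%). Grem1, the BMP antagonist gremlin, averaged 151 CPM in WT control, 951 in WT senescent, 374 in KO control and 2085 CPM in KO senescent cells (log2 2.65 in WT and 2.48 in KO cells). KO cells held more of it than WT cells by 1.31 in the control and 1.13 in the senescent state. Dcn, the proteoglycan decorin, rose by 3.37 in WT cells and by 3.44 in KO cells. The activin-binding follistatins rose in both genotypes: Fst by 0.46 in WT cells against 0.74 in KO cells, and Fstl3 by 0.28 against 0.78. Fstl3 passed the interaction (0.50, SE 0.10, adjusted p 0.00179) and was 0.51 higher in KO than in WT senescent cells, a comparison in which Inhba was higher too.

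Smad7, an inhibitory SMAD whose gene is itself a target of TGF-beta signalling, was at 77.7, 72.4 and 73.5 CPM in WT control libraries and 92.4, 84.7 and 90.5 CPM in WT senescent libraries. It was at 77.1, 60.4 and 59.4 CPM in KO control and 104, 100.0 and 118 CPM in KO senescent libraries. Senescent libraries were above control libraries in both genotypes, and KO senescent libraries were the highest. Smad7 rose 1.20-fold in WT cells (log2 0.26, SE 0.09, adjusted p 0.0187) and 1.64-fold in KO cells (0.71, SE 0.09, adjusted p 3.16e-06). The WT rise did not pass without WT control 2, WT control 3, WT senescent 1 or WT senescent 3 (adjusted p up to 0.0755). The interaction was 0.45 (SE 0.12, adjusted p 0.0159), and its largest adjusted p without any 1 library was 0.0454. KO and WT senescent cells differed by 0.27 (SE 0.09, adjusted p 0.032), lost without any WT senescent library or KO senescent 1 or 3 (adjusted p up to 0.143). With library totals alone that difference did not pass either (adjusted p 0.0785). Control cells differed by −0.18 (adjusted p 0.201), and without KO control 1 by −0.31 (adjusted p 0.00275).

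Other SMADs and their regulators moved mostly upward, with 11 of 16 higher and 3 lower in WT cells and 9 higher and 3 lower in KO cells, beside 29.2% and 27.0%, and 28.5% and 28.6%, of all genes. The interaction was passed by 6 with a positive and 1 with a negative sign, beside 9.24% and 11.7% of all genes. Smurf2, a ubiquitin ligase that partners SMAD7, averaged 171 and 272 CPM in control and senescent WT cells, and 143 and 406 CPM in KO cells (log2 0.67 and 1.51). Its interaction was 0.84 (SE 0.10, adjusted p 1.68e-05). Pmepa1, which sequesters SMAD2 and SMAD3, rose by 0.45 in WT cells against 1.03 in KO cells, an interaction of 0.58 (adjusted p 0.00411). Among the signal transducers, Smad3 rose by 0.48 in KO cells and passed the interaction (0.32, adjusted p 0.00405), and Smad2 had group means of 49.7 to 55.6 CPM. Smad4, the shared partner of all of them, changed by −0.20 in WT and −0.22 in KO cells, but neither change passed with library totals alone (adjusted p 0.525 and 0.183). Smad6, the inhibitory SMAD of the BMP branch, had group means of 66.4 to 76.5 CPM.

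Of 20 genes known as targets of SMAD2 and SMAD3, all tested, 6 rose and 13 fell in WT cells (29.2% and 27.0% of all genes), and 8 rose and 9 fell in KO cells (28.5% and 28.6%). The median change was −0.37 in WT and 0.023 in KO cells. The interaction was passed by 11 with a higher and 4 with a lower change in KO cells, where 9.24% and 11.7% of all genes passed in those directions. Ccn2, a secreted matricellular protein once named Ctgf, rose by 1.05 in WT cells against 1.38 in KO cells. Col1a1, a chain of type I collagen, averaged 7323 CPM in WT control libraries and 1750.3 CPM in WT senescent cells (−2.06), and 9326 and 2955 CPM in KO cells (−1.66). Tgfbi fell by 1.53 in WT cells against 2.52 in KO cells, Postn, periostin, by 1.26 against 2.34, and Adam12, a metalloprotease, by 1.99 against 1.83. The larger KO falls of Tgfbi and Postn started from higher control levels. Tgfbi was at 63.4 to 80.0 CPM in WT control and 104 to 120 CPM in KO control libraries. Its senescent libraries were at 20.6 to 26.2 CPM in WT and 18.3 to 21.8 CPM in KO cells. Postn was 1.79 higher in KO than in WT control cells (adjusted p 1.18e-05).

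In senescent cells, 14 of these 20 targets were higher and 0 lower in KO than in WT at an adjusted p under 0.05, beside 11.9% and 11.8% of all genes, and their median difference was 0.34. The 1 gene of them called was Cdkn2b, an inhibitor of cell cycle kinases (1.05, adjusted p 3e-06). Over the 8 targets of the BMP branch the counts were 0 higher and 6 lower, with a median of −0.26. Id3, an inhibitor of differentiation and a BMP target, averaged 278, 267 and 279.6 CPM in WT control, WT senescent and KO control cells but 198 CPM in KO senescent cells, giving an interaction of −0.44 (SE 0.09, adjusted p 0.00182). Id1, a relative of Id3, averaged 111, 93.7, 99.1 and 77.1 CPM over the groups in that order. Hey1, a transcription factor of the same list, rose in WT cells (1.43) and in KO cells (0.79). The chondrocyte markers given above differed between the senescent groups as well, with all 7 lower in KO cells, and the 5 myofibroblast markers, 3 of which (Acta2, Tagln and Cnn1) are also among the 20 targets, were all higher. The part of these markers in the counts was not tested.

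**Figure D4:**
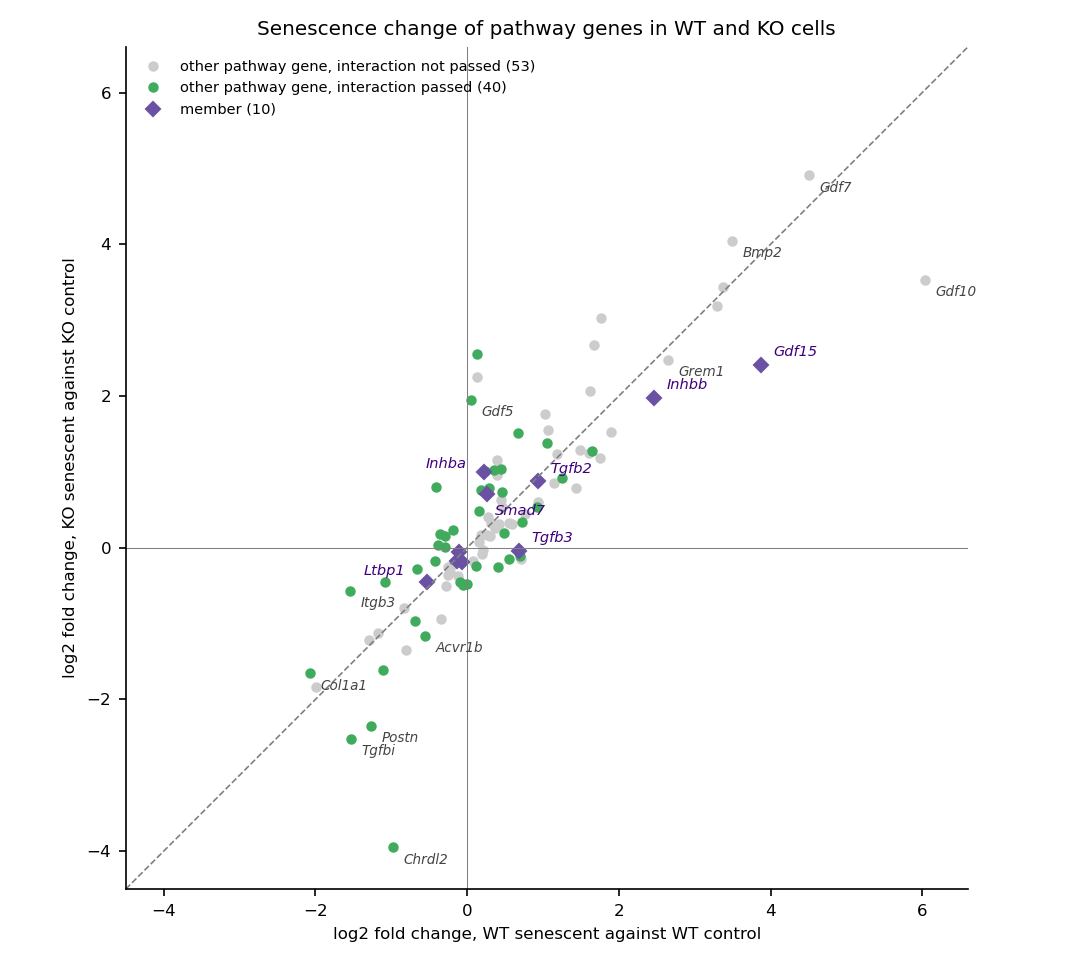
Log2 fold change with senescence in WT cells (horizontal) and KO cells (vertical) for the 10 members (diamonds) and the 93 other pathway genes tested (circles). Green circles passed the interaction (40 genes), and the dashed line marks equal changes. Inhba and Smad7 lie above the line, Tgfb3 and Gdf15 below it, and the 3 diamonds without a name near the origin are Tgfb1, Tgfbr1 and Tgfbr2.

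Between genotypes, 5 of the 10 genes were higher and 1, Tgfb2, was lower in KO than in WT control cells, beside 8.07% and 4.96% of all genes. In senescent cells 4 were higher (Tgfbr1, Inhba, Ltbp1 and Smad7) and 1, again Tgfb2, lower, beside 11.9% and 11.8% of all genes, and 0 were called, where 3.48% of all genes were called. The interaction was passed by Inhba and Smad7 in the positive and by Tgfb3, Inhbb and Gdf15 in the negative direction, 2 and 3 of 10 genes beside 9.24% and 11.7% of all genes. These last 3 were the genes higher in KO control cells that rose in WT cells, and the comparisons share those control libraries. Without WT senescent 1, 5 genes in place of 8 passed in WT cells, and without WT senescent 3, 3 in place of 5 passed between KO and WT senescent cells.

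Ranked per annotated exon length, Ltbp1 was the most and Gdf15 the least abundant of the 10 genes in each group. In WT control cells the order was Ltbp1 at 57.4 ± 2.13 RPKM, Tgfbr2 at 25.5 ± 1.52, Smad7 at 16.5 ± 0.616, Inhba at 15.5 ± 1.42, Tgfb3 at 15.1 ± 1.26, Tgfbr1 at 6.75 ± 0.774, Tgfb1 at 6.24 ± 0.162, Inhbb at 3.00 ± 0.429, Tgfb2 at 2.91 ± 0.0470 and Gdf15 at 0.221 ± 0.0694 RPKM. The libraries of Smad7, Inhba and Tgfb3 overlapped from 1 rank to the next, as did those of Tgfbr1 and Tgfb1 and those of Inhbb and Tgfb2. In KO senescent cells Inhba was second at 27.7 ± 0.759 RPKM, Inhbb was sixth at 19.1 ± 1.75 RPKM, and Gdf15, at 4.07 ± 0.208 RPKM, overlapped with Tgfb2 at 4.23 ± 0.391 RPKM.

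For each member, the 2 genes with the most similar pattern of log2 CPM over the 12 libraries were sought among the 10674 protein-coding genes with a mean of 5 CPM or more. The closest to Inhbb was Cdkn1a (Pearson r 0.996), followed by Psrc1 (0.995), and the closest to Gdf15 were Spns2 (0.992) and Man2b1 (0.990). Tgfb2 was nearest to Aldh1a1 (0.993) and Efemp1 (0.988), Tgfb3 to Pkd2 (0.976) and 2610008E11Rik (0.968), and Inhba to Slc7a11 and Hectd2 (both 0.983). Ltbp1 was nearest to Ube2z (0.993) and Adam8 (0.990), Smad7 to Arl4c (0.986) and Nsmaf (0.98), Tgfbr2 to Ncoa6 (0.955) and Tjp1 (0.946), Tgfbr1 to Usp47 (0.934) and Filip1l (0.908), and Tgfb1 to Tmeff1 (0.916) and Igfbp6 (0.897). Within the 10 genes the highest correlation was that of Inhbb with Gdf15 (0.986) and the lowest that of Tgfb2 with Ltbp1 (−0.981). These values describe 12 points that fall into 4 groups and share the libraries' scaling, and the nearest genes are the extreme of many.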

How the data were processed

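RNA was measured in 12 libraries of MAFs, 3 for each combination of genotype and treatment, grouped by their titles. The authors deposited raw counts, whole numbers of reads per gene, after trimming with Trimmomatic 0.36, mapping with STAR 2.5.2b to GRCm38 and counting uniquely mapped reads over exons. Whether strand was used is not given in the sources used here. Counts of overlapping genes are therefore uncertain, and reads without molecular identifiers make floors cover counting error only. Totals were 23923030 to 31736083.

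The 10 genes and all lists, tests and alternatives were chosen with earlier results of these data known. All tests were fitted with edgeR 4.0.16 in R 4.3.3: filterByExpr kept 17416 genes, TMM scaled the libraries, and a robust quasi-likelihood F-test with 1 mean per group over 12 libraries gave p-values, with Benjamini-Hochberg adjustment across the genes tested. A gene passed at an adjusted p under 0.05 and was called if its log2 fold change was also over 1 in size. SE is the change divided by the square root of F. The script was tested on simulated data. RPKM used the merged length of all exons annotated for a gene in GENCODE, which can exceed the length of its main transcript. Promoters came from RefSeq on GRCm38.p6. Genes outside the 10 were named from a fixed panel or as the 2 called genes with the largest change in a list and comparison, at a mean of at least 1 CPM. Mdm2, Trp53, Atf4, Trib3, Egr1, Inha, Gfral and the marker genes were named after their values were seen. Alternatives were DESeq2 1.42.0, its size factors, library totals alone, no filter, only the groups compared, replicate numbers as a block, and each library left out. Results of some genes named by this rule are not reported here.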

Additional observations from a re-analysis of the deposited data

Results flagged for a closer look

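Each of the following genes had a senescence change that differed between the genotypes, by edgeR's quasi-likelihood test of the interaction (the KO log2 fold change less the WT one, adjusted p under 0.05 over all genes tested). Among the 10 genes the interaction was −0.73 for Tgfb3, 0.77 for Inhba, −0.49 for Inhbb, −1.46 for Gdf15 and 0.45 for Smad7. That of Inhbb was lost without any library other than WT control 3, KO control 3 or KO senescent 2, at adjusted p-values of up to 0.0945.

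Among ligands and receptors it was 1.91 for Gdf5, −0.61 for Acvr1b and −0.49 for Tgfbr3. Among genes of latency and activation it was −0.36 for Ltbp2, −0.66 for Ltbp4, 0.98 for Itgb3, −0.32 for Itgb5 and 0.30 for Thbs1. For secreted inhibitors it was 0.28 for Fst, 0.50 for Fstl3 and −2.97 for Chrdl2, whose KO senescent libraries held 1 to 4 counts, so that its size depends on the prior count. That of Fst was lost without WT senescent 2, WT senescent 3 or KO control 2 (adjusted p up to 0.0863).

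Among SMADs, their regulators and targets it was 0.32 for Smad3, 0.84 for Smurf2, 0.58 for Pmepa1, 0.33 for Ccn2, −0.99 for Tgfbi, 0.41 for Col1a1, −1.08 for Postn and −0.44 for Id3. That of Ccn2 was lost without WT control 2, WT senescent 1 or KO senescent 3 (adjusted p up to 0.0647). Among stress and p53 pathway genes it was −0.29 for Cdkn1a, lost without WT control 1, WT control 2, WT senescent 3 or KO senescent 1 (adjusted p up to 0.0703), and 0.93 for Atf3, lost without WT control 1, WT senescent 1, KO control 3 or KO senescent 3 (adjusted p up to 0.0777).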

How the results depend on the processing

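The 10 genes were compared in 5 ways under 920 combinations of result and alternative, of which 850 kept the direction and the side of the threshold. Many of these left out a library that was not in the comparison, which acts only through the shared scaling, filter and spread. The count therefore overstates how stable the results are. With library totals alone, the WT changes of Tgfb1, Tgfbr1 and Tgfbr2 turned to 0.11, 0.057 and 0.030 and the KO changes of Tgfb3 and Tgfbr1 to 0.11 and 0.10, and 4 of the 10 genes were called in KO cells instead of 2. With only the control groups fitted, 273 genes were called between genotypes instead of 442.

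When 1 library was left out, the members past the threshold numbered 5 to 8 in WT and 3 to 6 between genotypes in senescent cells. Between genotypes in control cells, 1408 to 2491 genes passed instead of 2269 and 283 to 753 were called, with 1408 and 283 without WT control 1, 1443 passed without KO control 2, 1492 passed without KO control 3 and 753 called without WT control 3. Values that turned lay near 0: the interaction of Tgfb2 ranged from −0.12 to 0.017, that of Tgfbr1 from −0.018 to 0.15 and that of Tgfbr2 from −0.080 to 0.0092, the KO change of Tgfb3 from −0.15 to 0.034, and the control difference of Tgfbr2 from −0.079 to 0.011.

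Replicate numbers showed no clear pairing: the deviations of same-numbered libraries had correlations of −0.13 to 0.13, 2 of 18 over 0.1. Those of different-numbered libraries were −0.19 to 0.17, 4 of 36 over 0.1. With 3 libraries per group, these values cannot show whether same-numbered libraries shared an animal or culture. With the replicate block over the 12 libraries, Tgfb3 passed between senescent genotypes (−0.17, adjusted p 0.0426) and the interaction of Inhbb did not (−0.48, adjusted p 0.0713), and with the replicate block within each genotype the KO change of Tgfb1 (−0.18, adjusted p 0.056) and the WT change of Tgfbr2 (−0.14, adjusted p 0.0705) did not.

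Depth limited Gdf15 most, with 7 to 12 counts in WT control libraries.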
